A study of Mus musculus with 38 samples.

Results

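A set of 39 genes of skeletal muscle contraction and metabolism was followed in mouse thyroids. Members were chosen by gene symbol out of the 19938 genes that could be named on the array, each read from its brightest probe set on average. The set holds the thick and thin filaments, the Z-disc, calcium handling and the energy supply of the muscle fibre. All values are log2 signals from Mouse Gene 1.0 ST arrays, with 38 mice measured on an array each. The signals are not per transcript length, so they are compared between mice and never between genes.

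The mice came from transgenic lines made on FVB/N zygotes with human *BRAF*V600E cDNA placed behind the bovine thyroglobulin promoter, which is active in thyroid follicular cells and not in muscle. Mice were called *BRAF*(+) or *BRAF*(-) by whether the thyroid held *BRAF*V600E RNA. In the paper the *BRAF*(-) mice on the arrays were genotyped as non-transgenic, except a tg1 mouse that was genotyped as transgenic. Papillary thyroid carcinoma (PTC, n = 10, age 6 to 21 months) and borderline lesions (BL, n = 10, 4 to 21 months) were all *BRAF*(+). Benign hyperplastic lesions (BHL) came from 4 *BRAF*(+) mice of 4 to 11 months and 4 *BRAF*(-) mice of 6 to 24 months. Asymptomatic thyroids (AT) came from 5 *BRAF*(+) mice of 7 to 11 months and 5 *BRAF*(-) mice of 4 to 12 months. In the paper the lines tg1, tg2 and tg3 are spread unevenly over these groups. The sample labels do not give the line of a mouse, so line was in no model. In the paper the *BRAF*(-) tg1 mouse is a hyperplastic case over 12 months old. Among the BHL *BRAF*(-) mice here only M_764, of 24 months, is that old. In all, 29 mice were female and 9 male. RNA came from fragments of both lobes and histology was read on the remaining tissue, so that the piece put on the array was not itself seen under the microscope. Thyroglobulin (*Tg*), which defines the follicular cell, was at 13.30 to 13.74 in all 38 thyroids.

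A skeletal muscle fibre contracts when calcium leaves the sarcoplasmic reticulum and binds troponin on the thin actin filament, which lets the myosin heads of the thick filament pull. Fast and slow fibres build these filaments from different isoforms of myosin, troponin and light chain, so the isoforms serve as markers of fibre type. The thyroid lies on the trachea beneath the strap muscles of the neck. In RNA of whole tissue, fewer muscle fibres and less muscle RNA per fibre cannot be told apart.

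Upstream sequences of 5 members are shown because these members divided into those that kept the common muscle pattern (*Acta1* and *Ckm*) and those that left it (*Pygm*, *Tmod1* and *Hhatl*). Each line gives the 250 bases before an annotated start (RefSeq, build GRCm38.p6), 5′ to 3′ on the gene's strand. For *Tmod1* the annotated gene begins earlier, at chr4:46038940, so its window lies inside the gene and not upstream of it. Capitals mark 4 motifs that were searched on both strands. They were TATAAA, the E-box CAGCTG bound by myogenic factors, CAAGTG, a site of the thyroid factor NKX2-1, and the CArG box bound by serum response factor. No matches overlapped.
Acta1 (chr8:123894776-123895025, minus strand): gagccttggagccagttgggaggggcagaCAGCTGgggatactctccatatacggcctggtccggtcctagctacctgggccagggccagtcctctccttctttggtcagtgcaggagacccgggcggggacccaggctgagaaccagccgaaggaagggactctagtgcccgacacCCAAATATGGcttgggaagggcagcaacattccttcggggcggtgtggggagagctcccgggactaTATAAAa
Ckm (chr7:19410844-19411093, plus strand): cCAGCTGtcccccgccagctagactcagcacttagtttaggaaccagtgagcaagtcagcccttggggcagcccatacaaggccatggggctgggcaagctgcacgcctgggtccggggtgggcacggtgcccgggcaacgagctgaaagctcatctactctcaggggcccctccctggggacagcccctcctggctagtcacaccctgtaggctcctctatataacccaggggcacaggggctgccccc
Pygm (chr19:6384158-6384407, plus strand): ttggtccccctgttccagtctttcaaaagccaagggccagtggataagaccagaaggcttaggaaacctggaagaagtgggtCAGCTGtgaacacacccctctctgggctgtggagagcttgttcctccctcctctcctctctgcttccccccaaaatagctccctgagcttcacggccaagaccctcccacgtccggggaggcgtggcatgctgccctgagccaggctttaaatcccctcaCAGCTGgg
Tmod1 (chr4:46038972-46039221, plus strand): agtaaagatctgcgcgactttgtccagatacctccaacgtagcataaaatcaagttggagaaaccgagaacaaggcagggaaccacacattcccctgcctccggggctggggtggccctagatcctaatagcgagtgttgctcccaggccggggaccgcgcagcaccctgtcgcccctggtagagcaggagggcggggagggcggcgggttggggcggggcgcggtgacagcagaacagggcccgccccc
Hhatl (chr9:121792508-121792757, minus strand): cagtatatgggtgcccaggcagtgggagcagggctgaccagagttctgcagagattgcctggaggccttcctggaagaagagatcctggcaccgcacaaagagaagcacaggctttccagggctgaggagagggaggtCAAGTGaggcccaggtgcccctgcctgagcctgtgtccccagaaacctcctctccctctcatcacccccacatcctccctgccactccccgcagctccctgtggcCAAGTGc

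In these windows *Acta1* held 1 match each to TATAAA, the E-box and the CArG box. *Ckm* held 1 E-box and *Pygm* held 2. *Hhatl*, which has 2 annotated starts and is shown at the upstream one, held 2 matches to CAAGTG. The *Tmod1* window, which lies inside the annotated gene, held no match. Of the 30 members with a window in the table, 13 held the E-box, 5 TATAAA, 3 CAAGTG and 3 the CArG box at any of their starts. Among all 32851 windows of the same length, 13.0% held the E-box, 12.4% TATAAA, 11.6% CAAGTG and 1.47% the CArG box. A match in letters is a description and no measure of binding.

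The muscle genes rose and fell together from mouse to mouse. For each mouse the muscle level was taken as the mean over the 39 members of the log2 signal minus that gene's mean. The mice formed 2 clusters in this level, divided by a gap of 1.17 between -0.06 and 1.11. On the upper side lay 8 mice, which were PTC M_358 (1.11), M_348 (1.41), M_359 (1.53) and M_1002 (1.68), BL M_527 (2.01) and M_530 (3.42), BHL *BRAF*(-) M_764 (2.38) and AT *BRAF*(-) M_940 (2.40). The other 30 mice ranged from -0.89 to -0.06, and the highest of them was PTC M_364. All 8 mice were female and were 10 to 24 months old. None of them was an AT *BRAF*(+) or BHL *BRAF*(+) mouse.

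**Figure D1:**
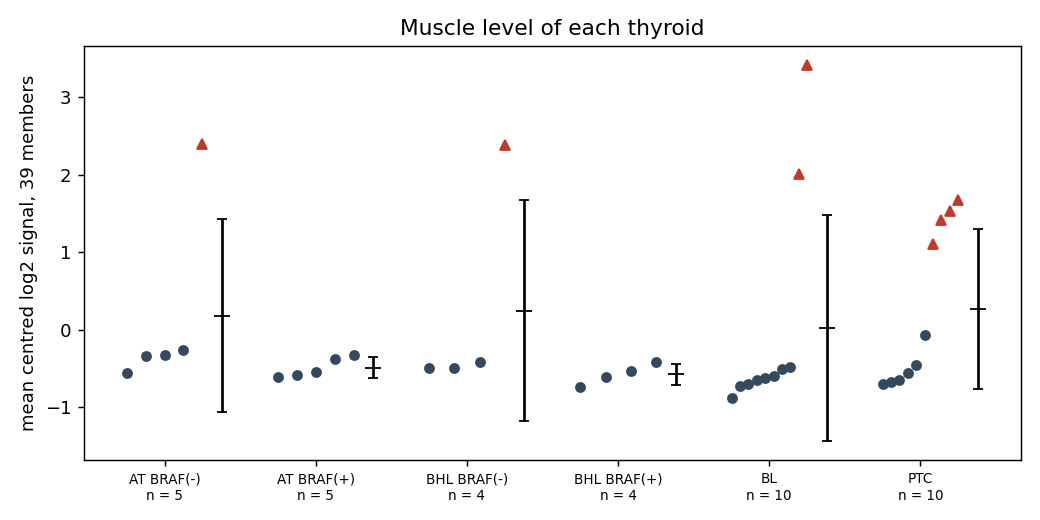
Muscle level (mean over 39 members of the centred log2 signal, vertical axis) of each mouse by group. Each point is a mouse, red triangles are the 8 mice above the gap between -0.06 and 1.11, and bars show the mean and SD of each group.

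Because few mice carried the high values, the group means were unstable. The muscle level was 0.26 ± 1.03 (SD, n = 10) in PTC, 0.02 ± 1.46 (SD, n = 10) in BL, 0.24 ± 1.43 (SD, n = 4) in BHL *BRAF*(-) and 0.18 ± 1.24 (SD, n = 5) in AT *BRAF*(-). It was -0.49 ± 0.13 (SD, n = 5) in AT *BRAF*(+) and -0.58 ± 0.13 (SD, n = 4) in BHL *BRAF*(+). The ranges of all 6 groups overlapped, and the lowest mouse of each group lay at -0.49 or below. Mice on the upper side of the gap numbered 4 in PTC, 2 in BL, 1 in BHL *BRAF*(-), 1 in AT *BRAF*(-) and 0 in both remaining groups, so the groups with a mean above 0 were those that held such mice.

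The members *Ckm*, *Tnnc2* and *Tnnt3* followed the mean of the others most closely over all mice. *Ckm* is the muscle creatine kinase that regenerates ATP, *Tnnc2* the fast troponin C and *Tnnt3* the fast troponin T. Within the 8 mice their Pearson correlations with the mean of the other members were 0.97, 0.98 and 0.98, and within the 30 mice 0.73, 0.72 and 0.68, where the mice share only low signals. *Ckm* was at 6.03, 6.08, 6.29, 6.63 and 11.13 in AT *BRAF*(-), at 5.93, 5.97, 6.03, 6.03 and 6.17 in AT *BRAF*(+), at 5.99, 6.01, 6.34 and 10.70 in BHL *BRAF*(-) and at 5.96, 6.10, 6.16 and 6.50 in BHL *BRAF*(+). In BL the lowest, median and highest values of *Ckm* were 5.60, 5.95 and 11.95, and in PTC 5.75, 6.65 and 9.87. *Tnnc2* ran from 8.09 to 11.07 in the 8 mice and from 4.89 to 6.21 in the other 30, and *Tnnt3* from 9.41 to 12.25 and from 6.03 to 7.51. All 3 genes were thus high in the same mice and near a floor in the rest.

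Of the 39 members, 26 were higher in each of the 8 mice than in any of the other 30. The 8 mice were picked by these very genes, so the separation is a description and not a finding, and it is read beside the 78 of all 35556 probe sets (0.219%) that separated the same mice. Within the 8 mice, 20 members had a Pearson correlation above 0.9 with the mean of the other members, and within the 30 mice none had.

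Among the thick filament genes, *Myh1*, the fast IIx myosin heavy chain, was at 8.41 to 10.64 in the 8 mice and at 3.64 to 5.99 in the other 30, and *Myh2*, the fast IIa chain, at 5.92 to 9.47 and 4.36 to 5.93. *Mylpf*, the fast regulatory light chain, was at 5.84 to 8.60 and 4.37 to 5.18. *Mybpc1* and *Mybpc2*, the slow and fast myosin-binding proteins C, were at 6.83 to 10.14 and 7.48 to 10.48 in the 8 mice, against 4.36 to 5.49 and 5.59 to 7.35 in the 30. Of this group only *Myh2* had a mouse of the 8 that fell inside the range of the 30, leaving aside the slow isoforms *Myh7*, *Myl2* and *Myl3*.

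The thin filament genes other than *Tmod1* and the slow troponins had all 8 mice above the 30. *Acta1*, skeletal muscle actin, was at 10.00 to 12.76 in the 8 mice and at 6.13 to 7.98 in the 30. *Tnni2*, the fast inhibitory troponin, was at 7.76 to 11.02 and 5.96 to 6.74, *Neb*, the filament ruler nebulin, at 8.47 to 11.41 and 4.75 to 6.09, and *Tmod4*, a muscle tropomodulin, at 7.56 to 8.99 and 5.77 to 7.14.
Among the Z-disc and elastic genes, *Ttn* (titin) reached 8.95 to 11.39 against 4.71 to 6.05, and *Actn2*, *Ldb3*, *Myoz1* and *Myot* also had all 8 mice above the 30. *Tcap*, the titin cap, had 7 of the 8 above. *Actn3*, the fast-fibre actinin, had 6 of the 8 above, and among the mice of low muscle level it was highest in BHL *BRAF*(-) M_946 (7.80) and AT *BRAF*(-) M_524 (6.65), while PTC M_1002 was at 6.57.

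Of the calcium genes, *Atp2a1*, the fast-fibre calcium pump SERCA1, was at 9.78 to 11.92 in the 8 mice and at 5.35 to 7.28 in the other 30. *Pvalb*, the calcium buffer parvalbumin, was at 7.44 to 10.23 and 4.19 to 6.10. *Ryr1*, the calcium release channel, was at 7.20 to 9.99 and 5.00 to 5.55, and *Cacna1s*, *Casq1* and *Trdn* had all 8 mice above the 30 as well. *Hhatl*, placed in this group as a membrane protein of the sarcoplasmic reticulum, was its only member outside this pattern.
Of the energy genes, *Eno3*, muscle enolase, was at 9.02 to 11.67 and 6.70 to 7.59, and *Pgam2* and *Ampd1* separated the same mice. *Mb*, the oxygen carrier myoglobin, had 7 of the 8 mice above the other 30, among which BHL *BRAF*(+) M_958 stood highest at 8.12. *Ucp1*, the uncoupling protein that defines brown fat, was at 11.56 in that mouse. It was higher, at 11.615, in BHL *BRAF*(-) M_701, whose *Mb* was below 8.12. A relation of *Mb* to *Ucp1* was not tested.

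**Figure D2:**
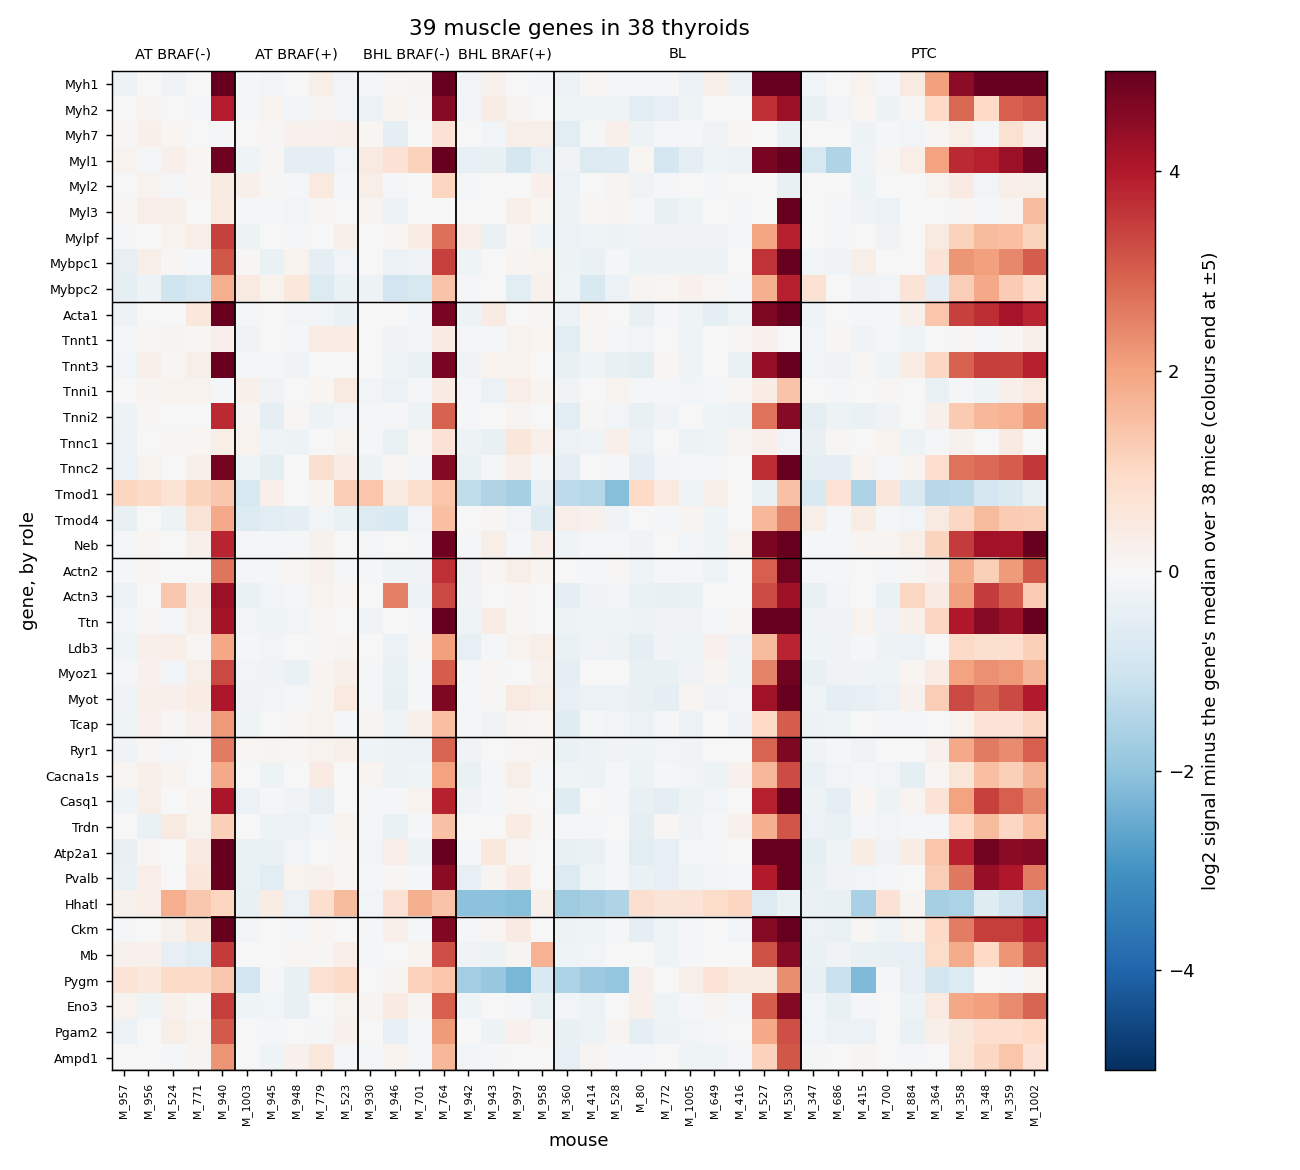
Log2 signal minus the median over the 38 mice (colour, ending at 5 in each direction) of the 39 members, in rows by role, in each mouse, in columns by group and muscle level. The red columns are the 8 mice of high muscle level, the rows of *Hhatl*, *Tmod1* and *Pygm* vary in other mice too, and those of the slow isoforms stay pale outside single mice.

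The slow-fibre isoforms of myosin, light chain and troponin stayed near the same value in nearly every mouse, unlike *Mybpc1*, the slow myosin-binding protein C, which is not in that list of 6 and had all 8 mice above the other 30. All 6 of them, and with them *Pgam2*, were removed by the filter on flat probe sets, which kept a probe set if 20% or more of the mice differed from its median by 1.5-fold or more. *Myh7*, the slow myosin heavy chain, ran from 4.65 to 5.96 over the 38 mice and *Myl2*, the slow regulatory light chain, from 4.20 to 5.64. *Tnnt1*, *Tnnc1* and *Tnni1*, the slow troponins, ran from 4.23 to 5.17, from 4.72 to 5.79 and from 5.31 to 7.04. All 12 fast-fibre isoforms passed the filter, and for 10 of them all 8 mice were above the other 30. The 8 mice were picked by a level that these isoforms help to set. Passing the filter and lying above the 30 thus describe the lists and do not test fibre type. Within the 8 mice the correlation with the mean of the other members was -0.46 for *Myh7*, -0.21 for *Myl2*, -0.16 for *Tnnc1* and 0.14 for *Tnnt1*, and the median was -0.01 over the 6 slow and 0.92 over the 12 fast isoforms. The fast list holds *Mybpc2* (0.80), while *Mybpc1*, outside the slow list, had 0.93, so the contrast holds for the isoforms listed and not for every gene named for a slow fibre.

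The remaining slow isoform, the light chain *Myl3*, was at 11.10 in BL M_530 and at 6.95 in PTC M_1002, and between 5.07 and 5.89 in all other mice. These same 2 mice were the highest for a pair of genes outside the set, both chosen after their values were seen. *Myh8*, the perinatal myosin heavy chain, was at 11.70 and 8.21 in them and at 5.37 or below in the rest. *Actc1*, the actin of heart and of developing skeletal muscle, was at 10.66 and 8.94 in them and at 7.07 or below in the rest.
*Myf6*, the late myogenic regulator MRF4, was at 8.34 in BL M_530 and at 5.61 in PTC M_1002, with BHL *BRAF*(-) M_764 (6.41) and BL M_527 (5.78) between them. The embryonic chain *Myh3* stayed at 3.92 to 4.59 in all mice. Of the heart genes, *Myh6*, the atrial myosin heavy chain, stayed at 4.67 to 5.53 and *Nppa*, the atrial natriuretic peptide, at 4.87 to 5.62. *Actc1* was thus high in 2 mice in which *Myh6* and *Nppa* were not. The heart genes *Myl7* (5.55) and *Tnnt2* (6.29) were second highest in BL M_530. Their highest mice, AT *BRAF*(+) M_779 (5.56) and BHL *BRAF*(+) M_997 (6.34), were of low muscle level. BL M_530 also had the highest muscle level of all.

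**Figure D3:**
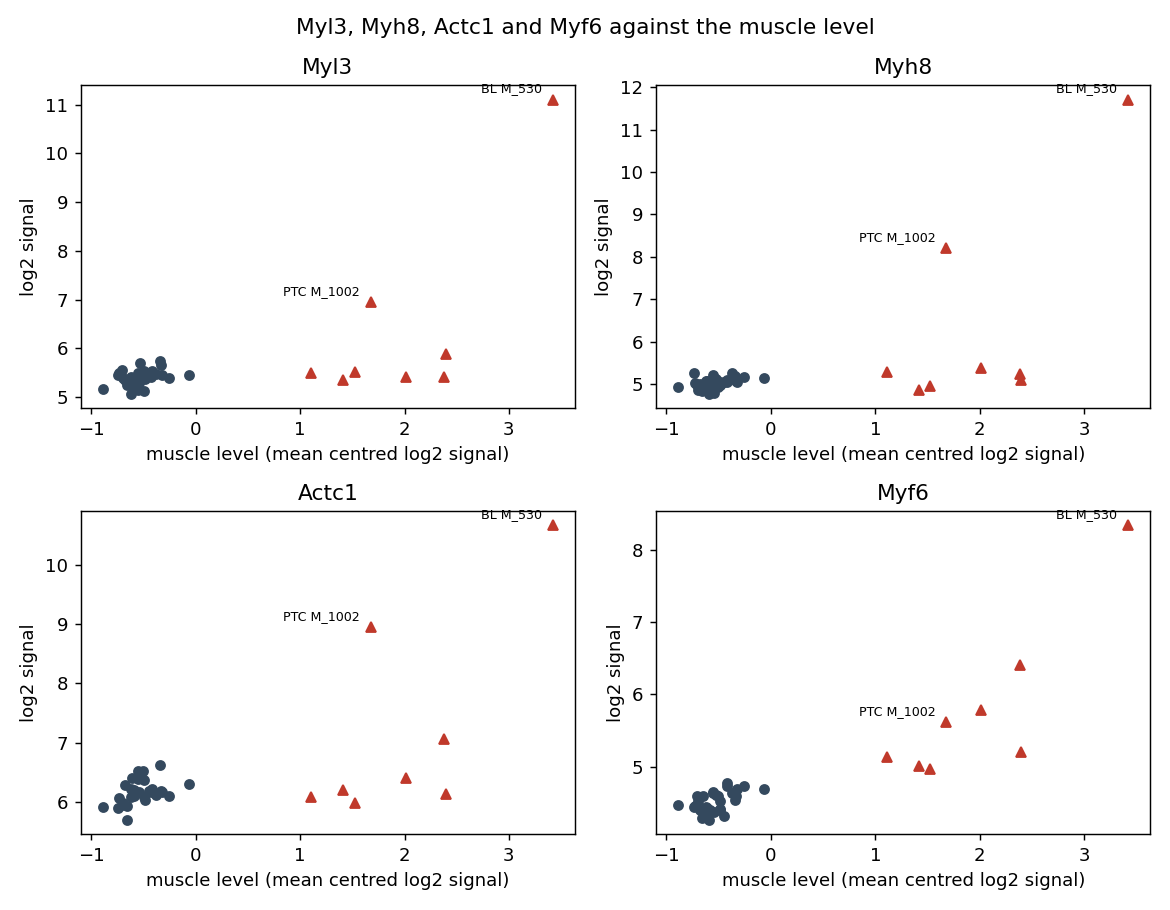
Log2 signal (vertical axes) of *Myl3*, *Myh8*, *Actc1* and *Myf6* against the muscle level (horizontal axes) of the 38 mice. Red triangles are the 8 mice of high muscle level. BL M_530 is highest in each panel, and PTC M_1002 is next for *Myl3*, *Myh8* and *Actc1*.

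*Pygm*, *Tmod1* and *Hhatl* were high in many thyroids in which the other muscle genes were low. *Pygm* encodes muscle glycogen phosphorylase, which releases glucose from glycogen. *Tmod1* encodes tropomodulin 1, a cap on the slow-growing end of the actin filament, and *Hhatl* encodes a membrane protein of the sarcoplasmic reticulum related to hedgehog acyltransferase. Within the 30 mice of low muscle level *Pygm* ran from 6.92 to 10.35, *Tmod1* from 6.06 to 9.57 and *Hhatl* from 5.58 to 9.51. Over the same mice *Ckm* ran from 5.60 to 7.07. The correlation with the mean of the other members was 0.41 for *Pygm*, 0.23 for *Tmod1* and 0.29 for *Hhatl* within these 30 mice, and 0.98, 0.89 and 0.53 within the 8.

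*Pygm* was at 9.73, 9.88, 10.15, 10.16 and 10.53 in AT *BRAF*(-) and at 9.24, 9.33, 10.35 and 10.60 in BHL *BRAF*(-). It was at 8.25, 8.84, 9.10, 9.96 and 10.14 in AT *BRAF*(+) and at 6.92, 7.31, 7.45 and 8.45 in BHL *BRAF*(+). The lowest, median and highest values were 7.25, 9.47 and 11.51 in BL and 7.00, 8.81 and 9.38 in PTC. All 10 PTC mice and all 4 BHL *BRAF*(+) mice thus lay below every AT *BRAF*(-) mouse, whereas AT *BRAF*(+) and BL overlapped them.
*Tmod1* was at 8.88, 9.14, 9.26, 9.32 and 9.54 in AT *BRAF*(-), at 8.63 to 9.59 in BHL *BRAF*(-), at 7.41, 8.22, 8.34, 8.45 and 9.42 in AT *BRAF*(+) and at 6.52, 6.70, 6.93 and 7.78 in BHL *BRAF*(+). In BL its lowest, median and highest values were 6.06, 8.07 and 9.66, and in PTC 6.64, 7.46 and 8.89. Of the PTC mice 9 of 10 were below every AT *BRAF*(-) mouse.
*Hhatl* was at 7.91, 8.01, 8.77, 9.05 and 9.51 in AT *BRAF*(-), at 7.56, 8.40, 9.12 and 9.49 in BHL *BRAF*(-), at 7.33, 7.41, 8.06, 8.52 and 9.26 in AT *BRAF*(+) and at 5.58, 5.62, 5.63 and 7.96 in BHL *BRAF*(+). In BL its lowest, median and highest values were 5.91, 7.85 and 8.78, and in PTC 6.02, 6.90 and 8.43. Of the AT *BRAF*(+) mice 3 lay within the range of AT *BRAF*(-) and 2 below it, and 3 of the 4 BHL *BRAF*(+) mice lay below both groups.

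**Figure D4:**
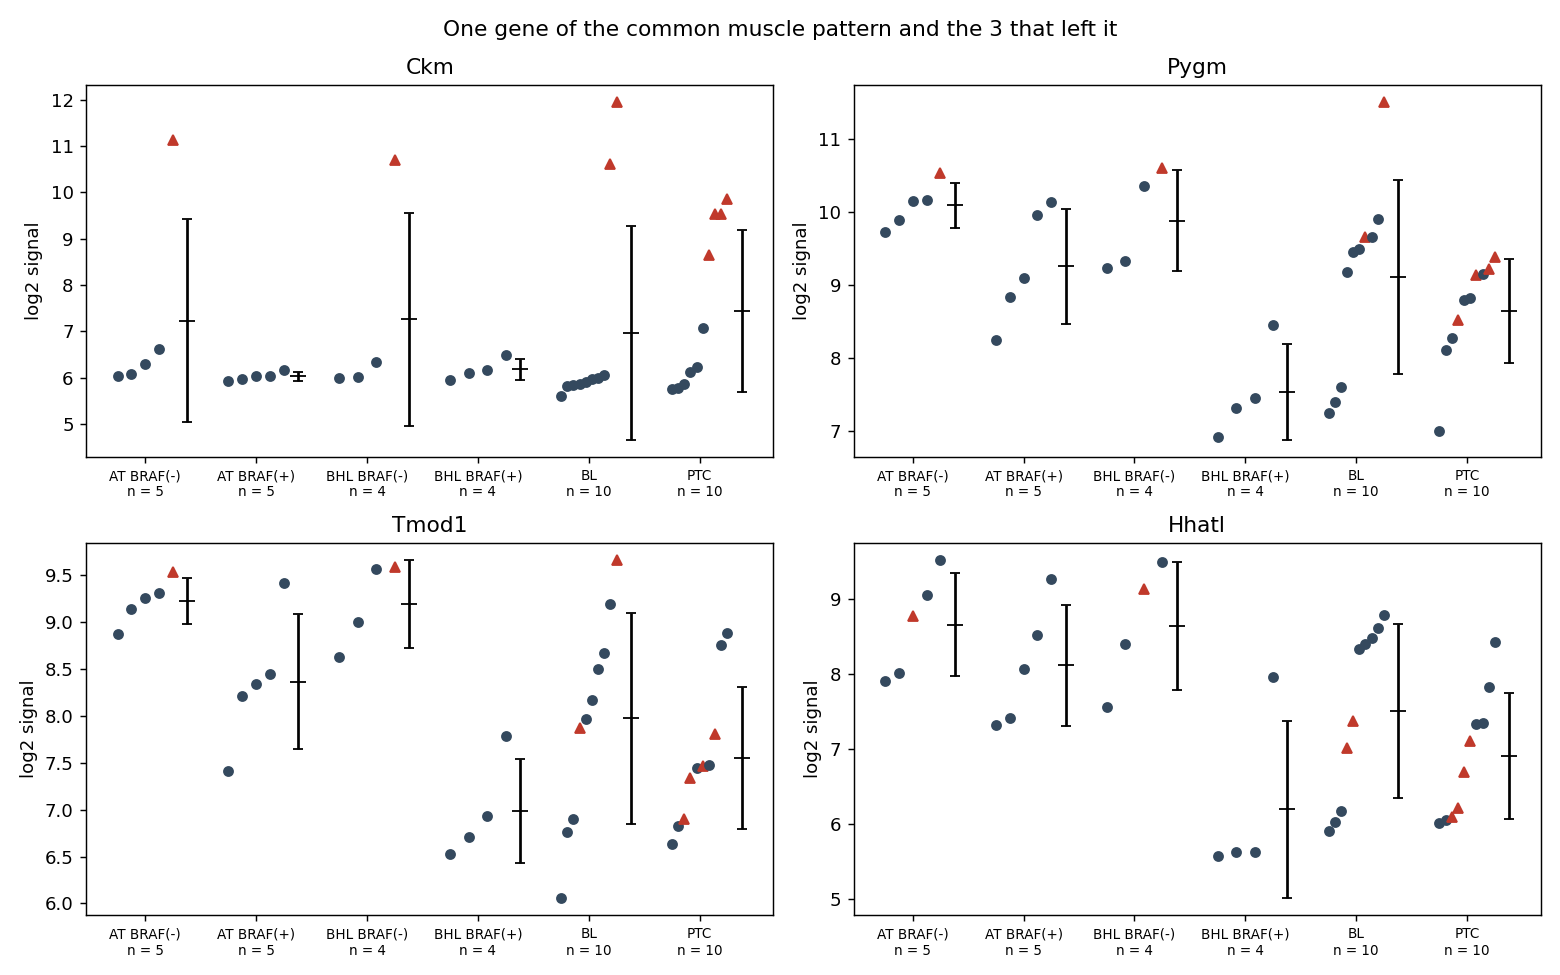
Log2 signal (vertical axes) of *Ckm*, *Pygm*, *Tmod1* and *Hhatl* in the 6 groups. Points are mice, red triangles the 8 mice of high muscle level, and bars the mean and SD. *Ckm* divides the mice into high and low within groups, while *Pygm*, *Tmod1* and *Hhatl* differ between groups and are lowest in BHL *BRAF*(+).

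The 18 non-malignant thyroids, 9 *BRAF*(+) and 9 *BRAF*(-), were compared by *BRAF* status to see which of these genes differ with *BRAF*V600E RNA before cancer is present. The model, fitted with limma, had terms for lesion type, sex and *BRAF* status, and p-values were adjusted over all 4388 probe sets that passed the flat filter, of which 883 (20.1%) were called at an adjusted p under 0.05, 366 (8.34%) of them lower in *BRAF*(+). Of the 39 members 32 passed the filter, and 4 of these were called, all lower in *BRAF*(+) mice, a share near the background.
*Pygm* fell by 1.44 on the log2 scale (standard error 0.31, adjusted p = 0.00274), which is 2.72-fold, from 10.00 ± 0.49 (SD, n = 9) in *BRAF*(-) to 8.49 ± 1.14 (SD, n = 9) in *BRAF*(+) thyroids. *Tmod1* fell by 1.43 (standard error 0.28, adjusted p = 0.00155), or 2.69-fold, from 9.21 ± 0.33 to 7.75 ± 0.95 (SD, n = 9 each). *Hhatl* fell by 1.24 (standard error 0.34, adjusted p = 0.0135), or 2.36-fold, from 8.65 ± 0.71 to 7.26 ± 1.37 (SD, n = 9 each). *BRAF*(+) mice lay below every *BRAF*(-) mouse in 7 of 9 cases for *Pygm*, 8 of 9 for *Tmod1* and 5 of 9 for *Hhatl*. *Pygm* and the fourth gene, *Myl1*, are among the genes that the study itself selected on these mice. All 4 calls rest on the arrays of that selection, so none of their directions is independent evidence.

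*Myl1*, the fast essential light chain, followed the common muscle pattern and was called beside it. It was at 4.53, 4.94 and 5.40 (lowest, median and highest) in the 9 *BRAF*(+) and at 5.32, 5.83 and 10.50 in the 9 *BRAF*(-) mice, a log2 difference of -1.87 (standard error 0.60, adjusted p = 0.0315). The highest *BRAF*(-) values were those of M_764 (10.50) and M_940 (10.23), the 2 *BRAF*(-) mice of high muscle level. The call was lost without either of them (adjusted p = 0.0619 and 0.0595), and also without BHL *BRAF*(+) M_942, M_943 or M_997 (adjusted p = 0.0522, 0.0536 and 0.0564). Without both M_764 and M_940 the difference was -0.74 (standard error 0.21, adjusted p = 0.0240), because the other 7 *BRAF*(-) mice lay at 5.32 to 6.51 and varied little. With age as a covariate neither *Myl1* (adjusted p = 0.118) nor *Hhatl* (adjusted p = 0.0509) was called.

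The remaining members had no call. *Ckm* differed by -1.24 (standard error 0.61, adjusted p = 0.165) with a size like that of *Hhatl* but a wider error. The median difference over the 32 tested members was -1.004, against 0.06 over all 4388 probe sets. Without the mice of high muscle level it was -0.005, against 0.01. In that fit 610 probe sets were called (13.9%), 238 of them lower (5.42%), and the called members were *Pygm* at -1.16 (adjusted p = 0.0149), *Tmod1* at -1.26 (adjusted p = 0.0103) and *Myl1*. *Hhatl* was at -0.97 with an adjusted p of 0.0584. The negative median of the set thus rested on M_764 and M_940, whereas *Pygm* and *Tmod1* were called with and without them. By its age, M_764 is the tg1 mouse that the paper gives as genotyped transgenic. For the 6 slow isoforms a fit without the flat filter gave differences of -0.14 to 0.07 and no call, with an adjusted p of 0.692 or above, where 1458 of 35556 probe sets were called (4.1%).

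Setting the level of the other muscle genes equal gave much the same picture. With the mean of 8 anchor genes (*Myh1*, *Mylpf*, *Acta1*, *Tnnt3*, *Tnni2*, *Tnnc2*, *Ttn* and *Neb*) as a covariate, *Pygm* differed by -1.17 (standard error 0.30, adjusted p = 0.0143), *Tmod1* by -1.27 (standard error 0.30, adjusted p = 0.00841) and *Myl1* by -0.76 (standard error 0.23, adjusted p = 0.0303). *Hhatl* differed by -0.99 and was no longer called (adjusted p = 0.0617). In the same fit 669 of 4388 probe sets were called (15.2%).
The *BRAF* difference of *Hhatl* itself differed between the lesion types. It was larger in BHL than in AT by 2.20 on the log2 scale in the direction of lower signal (interaction -2.20, standard error 0.49, adjusted p = 0.0444), where 26 of 4388 probe sets were called (0.593%), 15 of them negative (0.342%). The corresponding values were -1.65 for *Pygm* (adjusted p = 0.157) and -1.43 for *Tmod1* (adjusted p = 0.192), which did not pass. The *Hhatl* call was lost when any of 12 of the 18 mice was left out in turn, with adjusted p-values up to 0.128, while its value stayed between -2.44 and -1.92. Neither sex (49 of 4388 probe sets called, 1.12%) nor lesion type (0 of 4388 called in limma, 555 at an unadjusted p under 0.05) called a member. For *Hhatl* the difference of males against females was 1.30 (adjusted p = 0.0995), and 1.49 (adjusted p = 0.0450) without M_764 and M_940, where 56 probe sets were called (1.28%).

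PTC, BL and the benign groups were then each compared with the 5 AT *BRAF*(-) mice with limma, in 1 fit over all 38 mice that had terms for the 6 groups and for sex. These comparisons share their control mice, so they are not independent of each other. In PTC 1732 of 4388 probe sets were called (39.5%), 468 of them lower (10.7%). Of the 32 tested members 3 were called, all lower, namely *Tmod1* at -1.50 (standard error 0.37, adjusted p = 0.00156), *Hhatl* at -1.48 (standard error 0.39, adjusted p = 0.00306) and *Pygm* at -1.37 (standard error 0.46, adjusted p = 0.0176). The median over the members was -0.002, against 0.37 over all probe sets tested. *Ckm* was at -0.05 (standard error 0.90). PTC held thyroids of high muscle level, and over the whole group *Pygm*, *Tmod1* and *Hhatl* were lower than in AT *BRAF*(-). In the 4 PTC mice of high muscle level, *Pygm* was at 8.52 to 9.38 although *Ckm* was at 8.64 to 9.87, and in AT *BRAF*(-) M_940 *Pygm* was at 10.53 with *Ckm* at 11.13. Without AT *BRAF*(-) M_940 the *Pygm* difference was -1.20 (adjusted p = 0.0662). Without all mice of high muscle level, *Pygm* was at -1.50 (adjusted p = 0.0153), *Tmod1* at -1.31 (adjusted p = 0.0169) and *Hhatl* at -1.22 (adjusted p = 0.0617). In that fit, in which 1152 probe sets were called (26.3%), *Mybpc2* was called in the other direction, at 0.73 (adjusted p = 0.0484).

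In BHL *BRAF*(+) the same 3 members were called and the differences were larger. *Pygm* fell by 2.50 (standard error 0.56, adjusted p = 0.00105), or 5.65-fold, *Hhatl* fell by 2.26 (standard error 0.48, adjusted p = 0.000602) and *Tmod1* fell by 2.11 (standard error 0.45, adjusted p = 0.000625). In this comparison 1135 probe sets were called (25.9%), 428 of them lower (9.75%). These 3 calls held when any single mouse of either group was left out. *Hhatl* in BHL *BRAF*(+) M_958 was at 7.96, apart from the other 3 mice. M_958 was the only male of this group and was 4 months old, while the others were females of 10 to 11 months. The cause of its higher *Hhatl* was not tested.
In BL 1431 probe sets were called (32.6%), 363 of them lower (8.27%), and *Tmod1* was the only member called, at -1.08 (standard error 0.37, adjusted p = 0.0251). Its call was lost without AT *BRAF*(-) M_940, M_956 or M_957 (adjusted p = 0.103, 0.0605 and 0.0638). *Pygm* differed by -0.90 (adjusted p = 0.131) and passed without BL M_530 (-1.16, adjusted p = 0.0297). *Hhatl* differed by -0.88 (adjusted p = 0.0808) and passed without BL M_1005, M_416 or M_649 (adjusted p = 0.0467, 0.0314 and 0.0362). The BL mice themselves ranged widely. *Pygm* was at 7.60, 7.40 and 7.25 in M_360, M_414 and M_528, and at 9.18 or above in the other 7.

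No member was called in the other comparisons. In AT *BRAF*(+) 170 probe sets were called (3.87%), and the differences were -0.75 for *Pygm* (standard error 0.53, adjusted p = 0.509), -0.68 for *Tmod1* (standard error 0.43, adjusted p = 0.431) and -0.27 for *Hhatl* (standard error 0.45, adjusted p = 0.836). Between BHL *BRAF*(-) and AT *BRAF*(-) limma called 0 of 4388 probe sets, with 139 at an unadjusted p under 0.05, and *Pygm* was at -0.15, *Tmod1* at 0.10 and *Hhatl* at 0.19. Between PTC and BL it called 0, with 150 at an unadjusted p under 0.05. There *Pygm* was at -0.47 (standard error 0.37), *Tmod1* at -0.42 (standard error 0.30) and *Hhatl* at -0.60 (standard error 0.32).

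**Figure D5:**
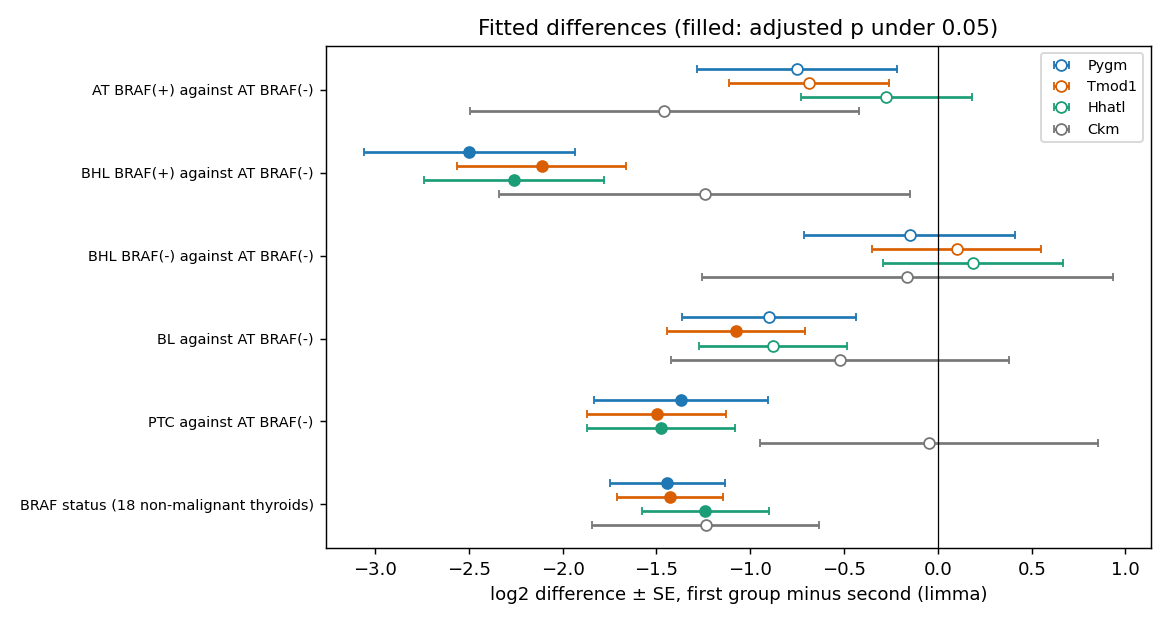
Log2 difference with its standard error from limma (horizontal axis) of *Pygm*, *Tmod1*, *Hhatl* and *Ckm* in 6 comparisons, of which 5 share the AT *BRAF*(-) mice. Filled points have an adjusted p under 0.05. The 3 genes are lowest in BHL *BRAF*(+), at -2.50 to -2.11, while *Ckm* has wide errors and no call.

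*Pygm*, *Tmod1* and *Hhatl* varied together apart from the other muscle genes. Over the 30 mice of low muscle level *Pygm* and *Hhatl* had r = 0.94 and rho = 0.92, *Pygm* and *Tmod1* r = 0.86 and rho = 0.81, and *Tmod1* and *Hhatl* r = 0.83 and rho = 0.73. Among 15 relations computed in this family, these 3 had permutation p-values of 1e-05, the smallest that 100000 permutations can give, except for the rho of *Tmod1* and *Hhatl* (p = 4e-05), and adjusted values up to 8.57e-05. Without the 2 mice farthest from the median r was 0.93, 0.84 and 0.81, and on deviations from the group means 0.91, 0.76 and 0.74. The permutations treat mice as exchangeable across groups, and the pairs were chosen after their values were seen.

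The mean levels of marker lists of other cells varied with the same 3 genes. Over the 30 mice the mean of 8 thyrocyte markers had r = 0.86 and rho = 0.87 with *Pygm*, 0.75 and 0.72 with *Tmod1*, and 0.87 and 0.87 with *Hhatl*. The mean of 6 brown adipocyte markers had r = 0.72, 0.71 and 0.71 with *Pygm*, *Tmod1* and *Hhatl*, and rho = 0.67, 0.67 and 0.62. The mean of 5 tendon markers had r = -0.76, -0.85 and -0.80, and rho = -0.58, -0.77 and -0.60. The white adipocyte mean had r = 0.52, 0.39 and 0.45, and rho = 0.54, 0.51 and 0.46, with an adjusted permutation p of 0.0306 or below for each of these relations. Without the 2 farthest mice r kept its sign in all of them, at 0.85, 0.77 and 0.86 for the thyrocyte, 0.71, 0.65 and 0.66 for the brown adipocyte, -0.71, -0.84 and -0.75 for the tendon and 0.55, 0.33 and 0.40 for the white adipocyte list. On deviations from the group means, the white adipocyte list had only r = 0.22, -0.09 and 0.19 with *Pygm*, *Tmod1* and *Hhatl*. In the same order r was 0.80, 0.65 and 0.82 for the thyrocyte list and 0.59, 0.51 and 0.60 for the brown adipocyte list. For the tendon list it was -0.68, -0.85 and -0.72. The list means are centred but not scaled, so the genes that vary most weigh most. Within the 30 mice the SD was 1.01 for *Slc5a5* and 0.07 for *Tg* of the thyrocyte list. It was 1.89 for *Fmod* and 0.39 for *Scx* of the tendon list, and 2.40 for *Ucp1* and 0.40 for *Ppargc1a* of the brown adipocyte list. The relations thus describe these means and not every gene of a list.
Values of some single genes of these lists follow. *Slc5a5*, the sodium iodide symporter of follicular cells, was at 9.99 to 11.74 in AT *BRAF*(-) and 8.51 to 10.18 in BHL *BRAF*(+), and fell by 1.13 with *BRAF* status in the non-malignant mice (adjusted p = 0.00974). *Ucp1* was at 8.41 to 11.54 in AT *BRAF*(-) and at 4.46, 4.86, 4.99 and 11.56 in BHL *BRAF*(+), where M_958, which had the highest *Hhatl* of its group, was the high one. *Fmod*, fibromodulin of tendon and other connective tissue, rose by 1.91 with *BRAF* status (adjusted p = 0.0101). *Tnmd*, of the same tendon list, ran from 4.18 to 9.57 over the 38 mice and was highest in BHL *BRAF*(-) M_946. Of the tested markers, 5 of 7 white adipocyte, 0 of 3 brown adipocyte and 1 of 3 thyrocyte genes fell with *BRAF* status, and 1 of 3 tendon genes rose, where 8.34% of all tested probe sets fell and 11.8% rose. *Slc5a5*, *Fmod* and most of the white adipocyte markers are among the genes the study selected on these mice, so these counts are not independent evidence of direction. In PTC against AT *BRAF*(-) 6 of 7, 3 of 3 and 3 of 3 fell and 2 of 3 rose, where 10.7% fell and 28.8% rose. Over all mice the level of the thyrocyte list, centred like the muscle level, ranged from 0.10 to 0.55 in AT *BRAF*(-), from -0.23 to 0.49 in BHL *BRAF*(-), from -0.25 to 0.45 in AT *BRAF*(+), from -0.37 to -0.03 in BHL *BRAF*(+), from -0.61 to 0.37 in BL and from -0.69 to 0.06 in PTC. The part of these cells in the differences of *Pygm*, *Tmod1* and *Hhatl* was not tested.

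Of 43 further muscle genes listed beside the set, 40 were on the array and 19 passed the flat filter. In the *BRAF* comparison of non-malignant thyroids 4 of them were called, all lower, beside 20.1% of all tested probe sets called and 8.34% called lower. They were *Cox8b* (-1.40, standard error 0.47) and *Cox7a1* (-1.28, standard error 0.45), cytochrome oxidase subunits shared by muscle and brown fat, *Slc2a4* (-0.80, standard error 0.26), the insulin-regulated glucose transporter of muscle and fat, and *Phkg1* (-0.74, standard error 0.22), the catalytic subunit of the kinase that activates *Pygm*. Their adjusted p-values were 0.0406, 0.0466, 0.0344 and 0.0224, and none of the 4 was called without M_764 and M_940. The median over the 19 was -0.71. *Phkg1* and *Slc2a4* are also among the genes the study selected on these mice. All 4 calls by *BRAF* status rest on the arrays of that selection, so none of their directions is independent evidence.
In PTC 5 of 19 were called, all lower (all probe sets 39.5%, lower 10.7%), and these were *Cox8b* (-2.05), *Cox7a1* (-1.71), *Fabp3* (-1.12), which carries fatty acids, *Slc2a4* (-0.84) and *Phkg1* (-0.61). In BL *Cox8b* (-1.61) and *Cox7a1* (-1.31) were called (all probe sets 32.6%, lower 8.27%), and in BHL *BRAF*(+) *Cox8b* (-2.18), *Cox7a1* (-1.88) and *Phkg1* (-0.89), where 25.9% of all were called and 9.75% called lower. Without the mice of high muscle level, *Fabp3* (adjusted p = 0.0797) and *Phkg1* (adjusted p = 0.171) lost their calls in PTC. In BL both genes lost theirs (adjusted p = 0.111 for *Cox8b* and 0.0757 for *Cox7a1*) and *Slc2a4* was called (-0.96, adjusted p = 0.0462), with 16.8% of all probe sets called. In BHL *BRAF*(+) *Cox7a1* kept its call (-1.61, adjusted p = 0.0337), while *Cox8b* (adjusted p = 0.0583) and *Phkg1* (adjusted p = 0.122) lost theirs, with 21.1% called. None of the 19 was called in AT *BRAF*(+), in BHL *BRAF*(-) or between PTC and BL.
Of the relatives of the leaving genes, *Pygb* and *Pygl*, the brain and liver glycogen phosphorylases, ran from 8.92 to 9.68 and from 8.91 to 10.14 over the 38 mice, and *Tmod2* and *Tmod3* from 6.22 to 7.24 and from 8.38 to 9.45. None of these 4 passed the flat filter. In limma fits without it, PTC differed from AT *BRAF*(-) by -0.29 for *Pygb* (adjusted p = 0.0303), -0.48 for *Tmod2* (adjusted p = 0.00151) and 0.41 for *Tmod3* (adjusted p = 0.0161), where 18.8% of all 35556 probe sets were called. *Tmod2* was also called in BL (-0.45, adjusted p = 0.00502, with 11.5% called) and *Pygb* in BHL *BRAF*(+) (-0.40, adjusted p = 0.0325, with 7.3% called), and none of the 4 was called by *BRAF* status. The myogenic regulators *Myod1*, *Myog* and *Pax7* stayed at 5.46 to 6.41, 4.63 to 5.50 and 5.30 to 6.30, and *Myf6* was the only 1 of 10 that was higher in all 8 mice of high muscle level than in the other 30.
*Tmod1* had a second probe set, which varied less. Its group means ran from 6.04 ± 0.20 (SD, n = 10) in PTC to 6.74 ± 0.19 (SD, n = 5) in AT *BRAF*(-), and it correlated with the first at r = 0.60 over the 38 mice. With the mean of both probe sets the *BRAF* difference of *Tmod1* was -0.76, and it was still called. The second probe set alone differed little by *BRAF* status. It was at 6.70 in AT *BRAF*(+) against 6.74 in AT *BRAF*(-), and at 6.26 in BHL *BRAF*(+) against 6.43 in BHL *BRAF*(-). The call of the mean therefore does not show a difference in the second probe set. *Trdn* was the only other member with several probe sets, and all others had 1.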

How the data were processed

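Thyroid RNA of 38 mice was measured on Mouse Gene 1.0 ST arrays. The authors deposited log2 values of 35556 probe sets, normalized by RMA, which equalizes the signal distribution between arrays. The RMA version is not given in the sources used here. Array medians were 6.00 to 6.15. Depth is not defined for arrays, and the number of mice limits the precision. No value of another series was used. Mouse numbers stand for separate animals.

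Symbols came from the platform annotation (21789 probe sets with 1 symbol, 1621 with several and 12146 not listed). The members, the gene lists and the motifs were chosen with earlier results of these data known. Named in full were members past the threshold in the BRAF, PTC or BL comparisons, the 6 members with the lowest and 3 with the highest correlation with the mean of the other members, the slow and fast isoforms as groups, and up to 6 called genes of the further muscle list per comparison. *Myl3*, *Myh8*, *Actc1*, *Myf6*, *Mb*, *Actn3* and *Mybpc2* were added after their values were seen.

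The paper's flat filter (1.5-fold or more from the median in 20% or more of the mice) kept 4388 probe sets. Fits used lmFit and eBayes of limma 3.58.1 in R 4.3.3 rather than the paper's analysis of variance, with Benjamini-Hochberg adjustment at 0.05. Figures and permutation tests, two-sided, used Python 3.11.15, numpy 2.4.6 and matplotlib 3.10.9. Alternatives were no flat filter, the filter over the 18 mice, median-centred arrays, an unmoderated model, intensity trend with robust variance, age added, sex dropped, females only, mice of the same sex and age as a random block, the anchor covariate, all probe sets of a gene, and each mouse left out. Leaving out the 8 mice of high muscle level was added after seeing the data, as were, for the interaction, the anchor covariate and single mice left out. Fits were tested on simulated data with known changes. Upstream sequences and coordinates are RefSeq's, build GRCm38.p6, and the bases after the start are not shown.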

Additional observations from a re-analysis of the deposited data

Results flagged for a closer look

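The values here stood far from the rest of their group, by Dixon's test of the gap to the nearest mouse over the group's range. Of 78 groups of values looked at, 15 were flagged, while chance alone flags about 1 in 20. The flags are not independent, since most repeat the same 2 mice, AT *BRAF*(-) M_940 and BHL *BRAF*(-) M_764. In M_940 the muscle level was 2.40 against a next value of -0.26, *Ckm* 11.13 against 6.63, *Tnnc2* 10.16 against 5.64, *Tnnt3* 11.43 against 6.78 and *Myl1* 10.23 against 5.63. In M_764 the muscle level was 2.38 against -0.42, *Ckm* 10.70 against 6.34, *Tnnc2* 9.96 against 5.47, *Tnnt3* 11.24 against 6.48 and *Myl1* 10.50 against 6.51.

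*Myl3* was at 11.10 in BL M_530, with the next mouse at 5.56, and at 6.95 in PTC M_1002, with the next at 5.52. *Tnnt1* was at 5.06 in PTC M_1002, with the next at 4.81. *Hhatl* was at 7.96 in BHL *BRAF*(+) M_958, with the next at 5.63, and *Myl1* was lowest in BHL *BRAF*(+) M_997, at 4.53 with the next at 4.94. The *BRAF* difference of *Hhatl* differed between BHL and AT by the interaction term in limma, at -2.20 (adjusted p = 0.0444). No explanation of these values was tested.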

How the results depend on the processing

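The arrays give no depth, and members near the floor of the signal cannot show a decrease. No paired analysis was possible because mouse numbers are not shared between groups. By *BRAF* status 4 members were called, 2 with age as a covariate and 2 to 4 in all 12 alternatives, or 3 to 6 with single mice left out. *Pygm* and *Tmod1* kept their direction and their call in all of these, at -1.71 to -1.16 and -1.83 to -0.76 (the latter moved most by averaging both *Tmod1* probe sets). *Myl1* lost its call without the flat filter (adjusted p = 0.124), unmoderated (0.0860), with trend and robust variance (0.0725), with age (0.118) and in females (0.0565), and *Hhatl* with age (0.0509), with the anchor covariate (0.0617) and without the mice of high muscle level (0.0584). For sex 0 members were called, and 1, *Hhatl* at 1.49, without those mice. For the interaction 1 was called, 0 without the flat filter, 0 without those mice, and 0 to 1 with single mice left out. For lesion type the number was 0 throughout.

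In PTC 3 members were called and 2 to 4 in the alternatives (2 to 3 with single mice left out), *Pygm* being lost in females (adjusted p = 0.0852). Over all probe sets the flat filter set the number of calls, 883 with it and 1458 without it by *BRAF* status, 49 and 83 for sex, 26 and 10 for the interaction, 1732 and 6686 in PTC, 1431 and 4075 in BL, 1135 and 2597 in BHL *BRAF*(+) and 170 and 91 in AT *BRAF*(+). Without the mice of high muscle level it was 14 for the interaction, 1152 in PTC and 738 in BL. In BL 1 member was called, 0 without the flat filter and 0 to 2 with single mice left out. In BHL *BRAF*(+) 3 were called in all 11 alternatives and with every mouse left out, and in AT *BRAF*(+), BHL *BRAF*(-) and PTC against BL 0. The muscle level of each group moved by less than 1 SD with the median or with all probe sets. Over all 38 mice 29 members correlated above 0.9 with the mean of the others, but 0 by Spearman's rho and 0 within the 30 mice of low muscle level, so the pooled correlations rest on the 8 mice. The cause of the other changes was not tested.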
